A study of Mus musculus with 21 samples.

Results

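H2Bub1, histone H2B carrying a single ubiquitin, was listed at 584 genomic domains in every condition of a study of mouse J1 embryonic stem (ES) cells. The domains were chosen from the list of ES cells: those longer than 2000 bp that overlapped, by at least 1 bp, a domain in each of the 4 other H2Bub1 lists of the study. Of the 2937 ES domains, 2561 were longer than 2000 bp, and the 584 found in all 5 lists made up 22.8% of these. The other 1977 lacked a counterpart in at least 1 list.

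Chromatin was profiled by immunoprecipitation and sequencing in 21 samples that fell into 12 groups. H2Bub1 was precipitated with an antibody from 2 samples of ES cells with Fbxl19 knocked down (KD), from 3 samples of ES cells that overexpressed flag-biotin tagged Fbxl19 more than 5 fold (OE-high), from 2 samples of cells differentiated for 4 days, from 2 samples of KD cells differentiated for 4 days, and from 3 samples of unmodified ES cells grown with leukemia inhibitory factor. Streptavidin beads pulled down Fbxl19 from 2 samples of OE-high cells and from 2 samples of OE-low cells, which carried tagged Fbxl19 below the endogenous level, and Rnf20 from 1 sample. The OE-low and Rnf20 samples came from J1 cells containing BirA, a biotin ligase. The remaining 4 samples were inputs, whose own values were not analysed here. The OE-high and OE-low cells are selected clones, and neither how far Fbxl19 was knocked down nor how the cells were differentiated is stated in the labels.

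Rnf20 is a subunit of the E3 ligase that attaches ubiquitin to histone H2B, and H2Bub1 is known from mammalian cells as a mark laid down over the bodies of transcribed genes as RNA polymerase II moves through them. Fbxl19 belongs to the F-box proteins and carries a CXXC zinc finger, which recognises CpG that is not methylated, so it is found at CpG islands, where many genes start. The series title poses the question whether Fbxl19 brings Rnf20 to such islands and so promotes H2Bub1.

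Each condition was represented by 1 combined list of domains on the mm9 build, with no values per replicate. Spread between samples is therefore unknown, and the text holds no test and no p-value. The intervals given are exact Clopper-Pearson 95% intervals that cover counting error in the number of domains only. A score is the authors' own value per domain or peak, whose formula is not stated, and was used only to rank entries within a list. The lists differed in size: 1813 domains in KD ES cells, 7216 in OE-high ES cells, 5125 in differentiated cells, 1090 in differentiated KD cells and 2937 in ES cells. Depth per sample is unknown; the track lines carry the numbers 46, 46, 36, 41 and 60 with the suffix M in the same order, and what they count is not stated. With the 1090 top-scoring domains of each list, 176 of 949 ES domains longer than 2000 bp were in all 5 lists (18.5%).

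The list of differentiated KD cells held back most candidates. It overlapped 29.9% of the ES domains longer than 2000 bp, against 55.5% for the KD ES list, 79.1% for the differentiated list and 93.8% for the OE-high list. The most frequent pattern was absence from the differentiated KD list alone, with 653 domains. A further 617 domains were absent from both knockdown lists and present in the OE-high and differentiated lists. No other list held 106 domains. Seen from the other lists, the 584 members touched 606 KD ES domains (33.4% of that list), 638 OE-high domains (8.84%), 624 differentiated domains (12.2%) and 586 differentiated KD domains (53.8%). At their full length, these 586 domains held 59.0% of the base pairs that the differentiated KD list covered.

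Members were longer and scored higher in ES cells than the other domains, which is a description, since length and overlap entered the choice. Their median ES length was 15400 bp, from 2200 to 303400 bp, against 8200 bp in the other 1977 domains. It was 11400 bp in the domains absent from the differentiated KD list alone and 7400 bp in those absent from both knockdown lists. The median ES score was 10.97 in members and 8.81 in the other domains. Together the members covered 16.9 Mb, 29.5% of the base pairs in the ES list.

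High rank in one list did not mean high rank in all. The median percentile of the members' scores was 67.0 within the KD ES list, 88.3 within the OE-high list, 86.3 within the differentiated list, 53.2 within the differentiated KD list and 71.1 within the ES list. Where several domains of another list overlapped a member, the highest percentile was taken. This was so at 40 members in KD ES, 61 in OE-high, 51 in differentiated and 21 in differentiated KD cells. Only 56 members ranked in the top 25% of every list. The median over members of the lowest of the 5 percentiles was 33.8.

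Close to the length limit, presence in all lists was rare on both sides. Among the 54 ES domains of 2200 bp, the shortest admitted, 6 were members, with ES scores between 8.03 and 26.3. None of the 44 domains of 2000 bp overlapped all 4 other lists. Of the 52 domains of 1800 bp, 3 did so, with ES scores between 7.07 and 8.78. The 2200-bp member at chr19:10057200-10059399 was listed at 3600 bp in KD ES cells and at 2400 bp in the OE-high, differentiated and differentiated KD lists. The 2200-bp member at chr11:50137000-50139199 lay inside far longer domains of the other lists, of 129800 bp in KD ES cells, 92600 bp in OE-high cells, 92800 bp in differentiated cells and 32200 bp in differentiated KD cells. The shortest members thus included regions that were compact in each list and regions that were part of broad domains elsewhere.

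Although present everywhere, the domains did not keep one size. The listed length at a member, summed over the overlapping domains, had a median of 17700 bp in KD ES cells, 31800 bp in OE-high ES cells, 27400 bp in differentiated cells, 9400 bp in differentiated KD cells and 15400 bp in ES cells. Relative to ES cells, the median ratio of length was 1.02 in KD ES cells, 1.37 in OE-high cells, 1.23 in differentiated cells and 0.798 in differentiated KD cells. The OE-high list was longer than the ES list at 428 members and shorter at 141. The differentiated list was longer at 390 and shorter at 175. In KD ES cells, 319 members were longer and 234 shorter. Differentiated KD cells were the only list with a majority of shorter members, 409 against 153 longer. Where a domain of another list overlapped a member and a further ES domain, its whole length was counted at the member. This was so at 74 members in KD ES, 99 in OE-high, 85 in differentiated and 50 in differentiated KD cells. The part of such joined domains in the lengths and in the shifts of ends given below was not tested.

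**Figure D1:**
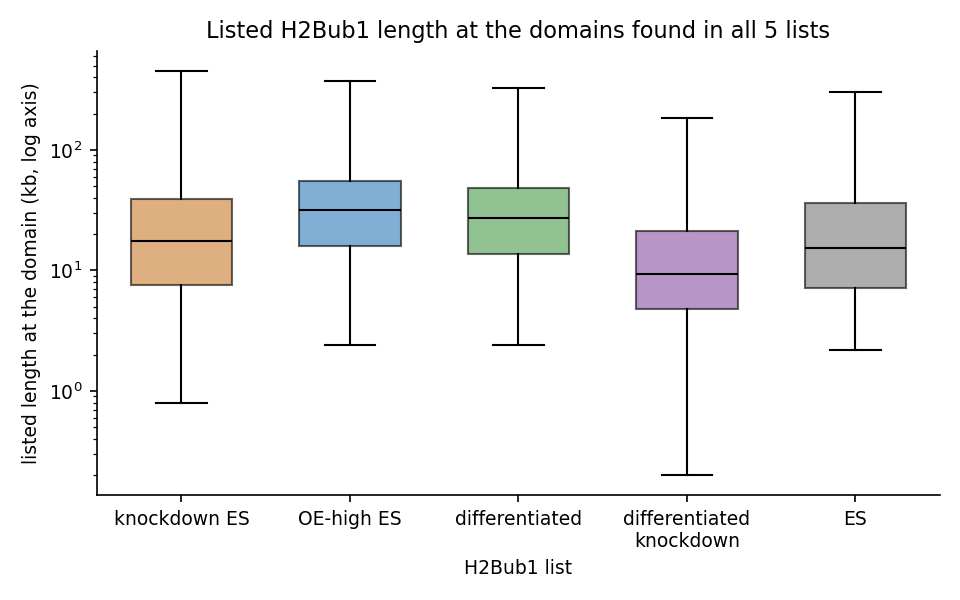
Listed H2Bub1 length in kb (log axis) at the 584 domains in each of the 5 lists; boxes give the quartiles and the median, whiskers the lowest and highest value. The box of differentiated KD cells, with a median of 9400 bp, lies lowest, and that of OE-high ES cells, with a median of 31800 bp, highest.

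With Fbxl19 knocked down, the members were shorter in differentiated cells, while in ES cells the median length was close to that of unmodified cells. At 540 of the 584 members (92.5%) the domain was shorter in differentiated KD cells than in differentiated cells, with a median ratio of 0.489, whereas the median ratio of KD ES to ES length was 1.02. Whether both ratios differ beyond the spread between samples could not be tested. The differentiated KD list gave the shortest of the 5 lengths at 344 members (58.9%), and the OE-high list gave the longest at 267, ties not counted. The lists differ in number of domains, and their depth is unknown. The part of either in these lengths was not tested.

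In 3 of the 4 other lists, at least 90% of the ES domain was listed again at most members. The KD ES list covered at least 90% of the ES domain at 408 members (69.9%), the OE-high list at 470 (80.5%), the differentiated list at 428 (73.3%) and the differentiated KD list at 216 (37.0%). Under 50% of the ES domain was covered at 55, 26, 44 and 193 members in the same order. All 4 lists covered at least 90% of the domain at 172 members (29.5%) and at least 50% at 375 (64.2%). The base pairs common to all 5 lists came to 7.74 Mb of 16.9 Mb (45.7%), with a median of 7400 bp per member. At 2 members, chr1:36568600-36766999 and chr11:22871600-22882599, no base pair of the ES domain was common to all 5 lists.

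The longer the domain, the smaller the share of it that was listed in differentiated KD cells. The median share of the ES domain that this list covered was 93.5% in the 102 members of up to 5 kb, 89.9% in the 108 members of 5 to 10 kb, 80.5% in the 134 members of 10 to 20 kb, 53.0% in the 143 members of 20 to 50 kb and 34.9% in the 97 members over 50 kb. In KD ES cells the corresponding medians lay between 97.3% and 100%, so no comparable decline with length was seen there. The OE-high and differentiated medians over 50 kb were 94.2% and 85.0%.

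The longest member spanned 303400 bp at chr1:34061800-34365199. It was listed at 293400 bp in KD ES cells, 373200 bp in OE-high cells and 329400 bp in differentiated cells, but at 12600 bp, chr1:34287800-34300399, in differentiated KD cells. It held 10 OE-high Fbxl19 peaks and no Rnf20 peak. The second longest, chr13:44824200-45113199, kept 174400 bp in differentiated KD cells, against 273600 bp in KD ES cells, 275400 bp in OE-high cells, 272800 bp in differentiated cells and 289000 bp in ES cells. It began at an OE-high Fbxl19 summit at 44824080 and held 20 Rnf20 peaks. At chr11:19824400-20013799, of 189400 bp in ES cells, 187800 bp were listed in KD ES cells and 18800 bp in differentiated KD cells. The other two of the 5 longest were short in KD ES cells too. The one on chromosome 18, of 213800 bp in ES cells, was listed at 51600 bp in KD ES cells and 54800 bp in differentiated KD cells. Its length was 121800 bp in OE-high and 119600 bp in differentiated cells. That at chr1:36568600-36766999, of 198400 bp, was listed at 12600 bp in KD ES cells and 2000 bp in differentiated KD cells. Without knockdown it was also far shorter than in ES cells, at 70800 bp in OE-high and 42200 bp in differentiated cells. The ES scores of these domains ranked low, at percentiles 7.42 and 1.46.

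A different order was seen at chr4:131736800-131767999, one of the 5 members covered least in any single list. Here KD ES cells listed only 1200 bp, while differentiated KD cells listed 34000 bp, differentiated cells 32200 bp, OE-high cells 38400 bp and ES cells 31200 bp. An OE-high Fbxl19 summit at 131768158 and an overlapping Rnf20 peak lay at its right end. The KD ES domain, chr4:131739800-131740999, lay away from that end. Its right end was 27000 bp and its left end 3000 bp farther in than in ES cells. Over all members, the list of least cover was that of KD ES cells at 80 and that of differentiated KD cells at 357, while at 106 members several lists shared the lowest cover.

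Peaks of Fbxl19 and Rnf20, which had no part in the choice of the domains, lay in the members more often than in the other ES domains. An OE-high Fbxl19 peak overlapped 485 of the 584 members (83.0%, interval 79.8 to 86.0), against 67.2% of the other domains (interval 65.1 to 69.2) and a background of 70.8% of all ES domains longer than 2000 bp. The difference was 15.9 percentage points (interval 12.0 to 19.5). An OE-low Fbxl19 peak overlapped 22.4% of members and 13.8% of the others, with a background of 15.8%, a difference of 8.62 points (interval 4.94 to 12.5). An Rnf20 peak overlapped 285 members (48.8%, interval 44.7 to 52.9) and 37.5% of the others, with a background of 40.1%, a difference of 11.3 points (interval 6.61 to 15.9). All these peaks were mapped in undifferentiated cells, those of Fbxl19 in tagged clones and those of Rnf20 in 1 library.

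Longer domains hold more peaks, so the shares were also set side by side within classes of ES length. For OE-high Fbxl19 the members had the higher share in 5 of 5 classes, with 68.6% against 54.6% in domains of up to 5 kb and 95.9% against 87.0% over 50 kb. For Rnf20 they had it in 4 of 5 classes, with 38.2% against 29.2% in domains of up to 5 kb, 60.8% against 47.0% at 20 to 50 kb and 61.9% against 65.3% over 50 kb. With the other domains weighted to the members by length class, the differences were 11.2 points for OE-high Fbxl19 and 7.15 for Rnf20. Weighting by ES score class as well gave 6.67 points for OE-high Fbxl19, 2.71 for OE-low Fbxl19 and -0.451 for Rnf20. The higher Rnf20 share of the members was thus not seen after weighting by length and score class. These classes are broad, with ES scores from 11.3 to 300 in the highest score class. No interval was computed for the weighted differences. When members had to be covered by at least 50% in each list, which left 375, the differences were 0.888 points for OE-low Fbxl19 (interval -3.06 to 5.30) and 4.57 for Rnf20 (interval -0.935 to 10.1), so both intervals included 0.

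**Figure D2:**
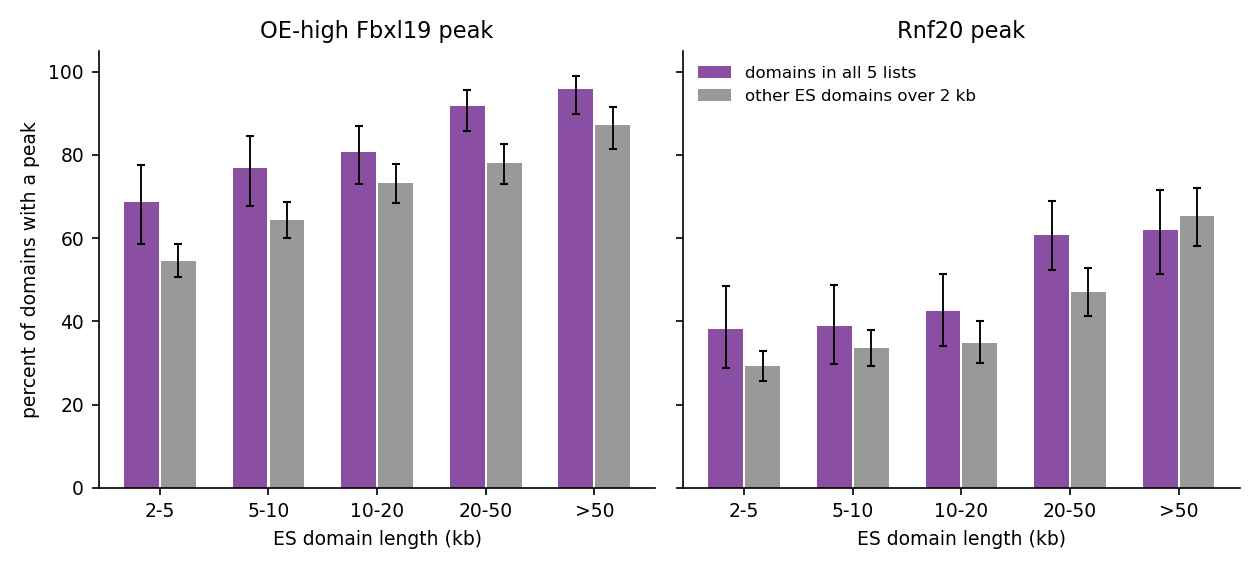
Percent of domains that overlap an OE-high Fbxl19 peak (left) or an Rnf20 peak (right) by class of ES length in kb; purple bars are the 584 domains in all 5 lists, grey bars the other 1977 ES domains over 2 kb, and error bars exact 95% intervals. Purple stands above grey in 5 of 5 classes for Fbxl19 and in 4 of 5 for Rnf20, with 61.9% against 65.3% over 50 kb as the exception.

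Both proteins at one place were likewise more frequent in members before length and score were taken into account. An OE-high Fbxl19 peak that itself overlapped an Rnf20 peak was present in 248 members (42.5%, interval 38.4 to 46.6), against 28.7% of the other domains and a background of 31.8%. Where the Fbxl19 peak was also one of both clones, 79 members (13.5%) held such a place, against 7.99% of the other domains and a background of 9.25%. Rnf20 without any OE-high Fbxl19 peak was present in 18 members (3.08%), against 7.23% of the others and a background of 6.29%. No peak of either protein was present in 81 members (13.9%), against 25.6% of the others and a background of 22.9%. Fbxl19 without Rnf20 was about as frequent in both, at 37.3% and 36.9% (background 37.0%), a difference of 0.455 points (interval -4.04 to 5.04). With the other domains weighted by length and score class, the difference of 13.8 points for both proteins at one place became 3.15, that of 5.54 for both clones 0.284 and that of -11.7 for neither protein -2.40. Against the domains absent from the differentiated KD list alone, the weighted differences were -0.169, -0.628 and 0.297 points in the same order.

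Set against the most similar domains, those absent from the differentiated KD list alone, the differences were smaller. OE-high Fbxl19 overlapped 83.0% of members and 77.2% of these 653 domains, a difference of 5.87 points (interval 1.30 to 10.4), and Rnf20 48.8% and 42.9%, a difference of 5.92 points (interval 0.248 to 11.6). Weighted by length and score class, these became 1.07 and -1.17 points. Set against the 617 domains absent from both knockdown lists, the differences were 12.7 points for Fbxl19, with 70.3% there, and 19.1 points for Rnf20, with 29.7% there. The same weighting gave -2.99 and -2.92 points, with 20 members left out for want of a counterpart. After this weighting 3 of these 4 differences were below 0, but no interval was computed for them, so their signs are not settled.

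The density of peaks did not set the members apart. They held 823 OE-high Fbxl19 peaks, 4.86 per 100 kb against 5.01 in the other domains, and 620 Rnf20 peaks, 3.66 per 100 kb against 3.71. Of these Rnf20 peaks, 74 (11.9%) lay in just 2 members on chromosome 8, and without these members the density was 3.28 per 100 kb. Of the Fbxl19 peaks, 39.0% overlapped an Rnf20 peak, against 36.3% in the other domains. At least 2 OE-high Fbxl19 peaks were present in 148 members (25.3%), against 16.6% of the other domains, with length not taken into account. The share was 21.7% in the domains absent from the differentiated KD list alone. The highest number in a member, 11, was reached at chr1:88321200-88432599 and chr1:182780600-182868999, both shorter in every other list than in ES cells. The first was listed at 53400 bp in KD ES, 47000 bp in OE-high, 8000 bp in differentiated, 7000 bp in differentiated KD and 111400 bp in ES cells. For the second the lengths were 18800, 40600, 35400, 7600 and 88400 bp in the same order. At chr17:45700800-45739199, 9 Fbxl19 and 11 Rnf20 peaks lay within 38400 bp, with Fbxl19 summits within 1 kb of both ends.

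Within the members, Fbxl19 mostly lay at 1 of the 2 ends. An OE-high Fbxl19 summit lay within 1 kb of an end in 392 members (67.1%, interval 63.1 to 70.9), against 51.7% of the other domains and a background of 55.2%, a difference of 15.4 points (interval 10.9 to 19.8). With the others weighted by length and score class the difference was 9.56 points. In the domains absent from the differentiated KD list alone the share was 60.0%, a difference of 7.09 points (interval 1.61 to 12.5), or 4.09 when weighted. It lay at exactly 1 end in 370 members (63.4%), 188 of them with the left end and 182 with the right end so marked. At 22 members it lay at both ends (3.77%, against a background of 2.38%) and at 192 at neither. OE-low summits lay at an end in 75 members (12.8%), against 8.04% of the other domains and a background of 9.14%. The nearest summit was inside the domain in 240 of the 370 (64.9%), at a median of 63 bp inside the listed end.

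That end stayed in place from list to list, whereas the opposite end moved. At the 370 members with a summit at 1 end, the end of the KD ES domain lay within 1 kb of the ES end in 88.9% (interval 85.3 to 91.9) on the side of the summit, against 38.9% (interval 33.9 to 44.1) on the opposite side. The OE-high list gave 70.0% (interval 65.0 to 74.6) against 22.2% (interval 18.0 to 26.7). The differentiated list gave 80.8% (interval 76.4 to 84.7) against 24.3% (interval 20.04 to 29.0). The differentiated KD list gave 90.5% (interval 87.1 to 93.3) against 29.7% (interval 25.1 to 34.7). The 4 lists are all set against 1 ES list, so their values are not independent of each other.

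On the side of the summit the median absolute shift was 200 bp in each of the 4 lists, which is the width of the grid on which the domains were listed. On the opposite side it was 1800 bp in KD ES cells, 5600 bp in OE-high cells, 4600 bp in differentiated cells and 3900 bp in differentiated KD cells. The shift was smaller at the summit end in 288 members in KD ES cells, in 295 in OE-high cells, in 299 in differentiated cells and in 305 in differentiated KD cells, out of 370 each.

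Direction differed between the conditions at the opposite end. In OE-high cells it lay over 1 kb farther out in 63.5% of the 370 members and over 1 kb farther in in 14.3%. In differentiated cells the shares were 57.0% out and 18.6% in. In KD ES cells they were 34.6% out and 26.5% in. In differentiated KD cells they turned to 17.6% out and 52.7% in. The median shift at that end was 3800 bp outward in OE-high cells, 2200 bp outward in differentiated cells, 200 bp outward in KD ES cells and -1400 bp, that is inward, in differentiated KD cells.

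**Figure D3:**
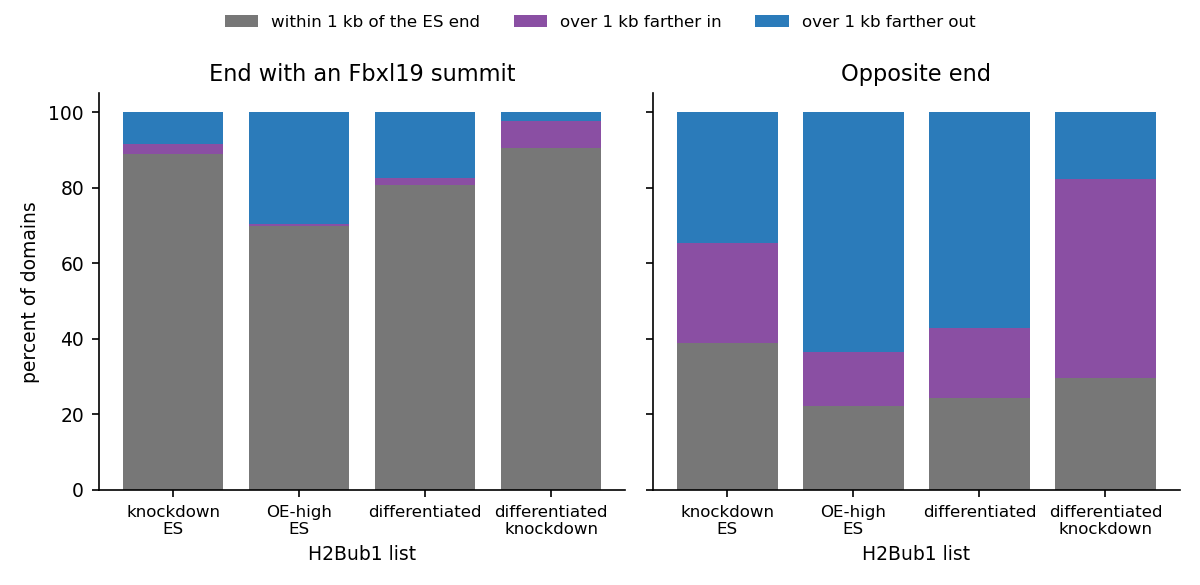
Percent of the 370 domains with an OE-high Fbxl19 summit at 1 end whose end in each other H2Bub1 list lay within 1 kb of the ES end (grey), over 1 kb farther in (purple) or over 1 kb farther out (blue). At the summit end (left) grey takes 70.0% to 90.5%, and at the opposite end (right) 22.2% to 38.9%.

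Differentiated KD domains were drawn in by over 1 kb at the opposite end alone in 181 of the 370 members (48.9%), at the summit end alone in 13 (3.51%) and at both ends in 14. Among the 50 such members over 50 kb, the median shift of the opposite end in this list was -34100 bp, with -200 bp at the summit end. A summit end within 1 kb of its ES position in all 4 lists was found in 200 members (54.1%), against 19 (5.14%) for the opposite end. In 42 members (11.4%) the summit end stood at the very same 200-bp position in all 5 lists, and in 132 (35.7%) within 200 bp. Both ends held within 1 kb in all lists in only 17 of all 584 members (2.91%).

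Ends without Fbxl19 were in between. The 192 members with no summit at either end gave 384 ends, of which 50.5% lay within 1 kb of the ES end in KD ES cells, 33.1% in OE-high cells, 34.9% in differentiated cells and 42.4% in differentiated KD cells. The pattern was not particular to the members: in domains absent from the differentiated KD list alone, 376 with a summit at 1 end, the shares at summit and opposite end were 85.1% and 45.2% in KD ES cells, 77.1% and 18.6% in OE-high cells, and 82.4% and 23.4% in differentiated cells.

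On chromosome 11, 4 domains show this form. They were picked after their values were seen, as those with a fixed summit end and the largest loss in differentiated KD cells. At chr11:75300200-75325399 the left end stood at 75300200 in all 5 lists, next to an OE-high Fbxl19 summit at 75300330. The domain was 15600 bp long in KD ES cells, 23200 bp in OE-high cells, 22600 bp in differentiated cells, 4400 bp in differentiated KD cells and 25200 bp in ES cells. At chr11:106848600-106860799 it was the right end that stood at 106860799 in all lists, with a summit at 106860777 and an Rnf20 peak over it. The length there was 13600 bp in KD ES, OE-high and differentiated cells, 3400 bp in differentiated KD cells and 12200 bp in ES cells.

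The domain at chr11:80196800-80213599 began at 80196800 in each list, beside a summit at 80196679 that an Rnf20 peak overlapped. It ran for 22400 bp in KD ES cells, 26800 bp in OE-high cells, 24800 bp in differentiated cells, 5400 bp in differentiated KD cells and 16800 bp in ES cells. The fourth, chr11:72254800-72267999, began at 72254800 in each list beside a summit at 72254748 and had no Rnf20 peak. Its lengths were 11600 bp in KD ES cells, 13000 bp in OE-high cells, 11400 bp in differentiated cells, 4400 bp in differentiated KD cells and 13200 bp in ES cells. In these 4 domains the part listed in differentiated KD cells lay at the named summit. The first of them held a further OE-high Fbxl19 summit at 75324376, of higher score (15.3, against 10.5 at the left end), with the only Rnf20 peak of the domain over it. That summit lay just over 1 kb from the right end, outside the part listed in differentiated KD cells.

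A profile along the 370 members, cut into 10 equal parts from the summit end, gave the cover over their whole length. The differentiated KD list covered a mean of 80.0% of part 1, 87.5% of part 2, 71.8% of part 5 and 40.6% of part 10. The KD ES list covered 93.0% of part 1 and 68.8% of part 10, the OE-high list 93.8% and 84.8%, and the differentiated list 89.1% and 80.0%. Cover in all 4 lists was lower in part 10 than in part 1, by the widest margin in the differentiated KD list. It was higher in part 2 than in part 1 in each list. In the 376 domains with a summit at 1 end and absent from the differentiated KD list alone, KD ES cover fell from 89.0% to 70.2%. There, from part 1 to part 10, OE-high cover rose from 83.0% to 90.9% and differentiated cover from 80.2% to 84.0%.

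**Figure D4:**
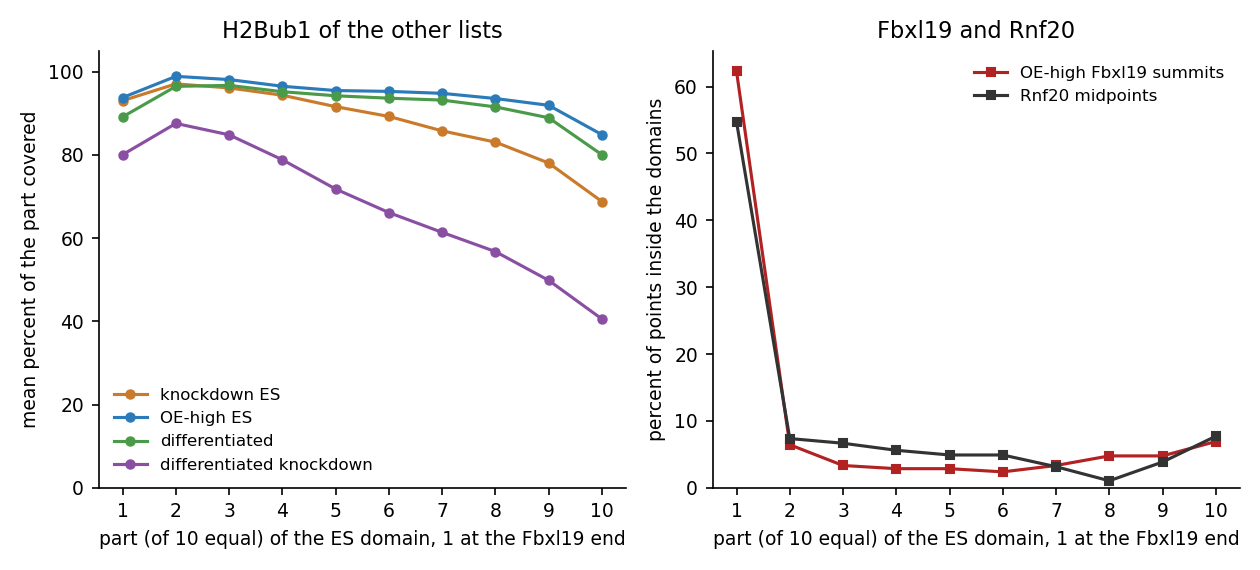
Left, mean percent of each of 10 equal parts of the ES domain covered by the 4 other H2Bub1 lists in the 370 domains with an OE-high Fbxl19 summit at 1 end, counted from that end; right, percent of the Fbxl19 summits and Rnf20 midpoints inside these domains that fall in each part. Cover in differentiated KD cells is 40.6% in part 10, and 54.7% of the Rnf20 midpoints lie in part 1.

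Rnf20 lay at the Fbxl19 end as well. Of the 285 Rnf20 midpoints inside these 370 domains, 156 (54.7%) fell in part 1, at the summit end, and 22 in part 10. In the 376 domains with a summit at 1 end and absent from the differentiated KD list alone, 116 of 247 midpoints (47.0%) fell in part 1. An Rnf20 midpoint lay within 1 kb of the summit end in 159 members (43.0%, interval 37.9 to 48.2) and within 1 kb of the opposite end in 17 (4.59%, interval 2.70 to 7.25). In the 192 members with no Fbxl19 summit at an end, 27 (14.1%) had an Rnf20 midpoint at either end. Over all members the share with an Rnf20 midpoint at an end was 35.3%, against 25.6% of the other domains and a background of 27.8%. It was 29.1% in the domains absent from the differentiated KD list alone. Weighted by length and score class, the differences from these 2 sets were 3.08 and 2.41 points. Of the Fbxl19 summits inside the 370 domains, 261 of 419 (62.3%) fell in part 1, which follows in part from how the ends were oriented.

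Cover in differentiated KD cells was lower in members with an Fbxl19 peak. The median share of the ES domain covered was 62.5% in the 267 members with peaks of both OE-high Fbxl19 and Rnf20, 74.3% in the 218 with Fbxl19 only, 85.7% in the 18 with Rnf20 only and 96.0% in the 81 with neither. These groups differ in length, with median ES lengths of 22200, 14200, 9200 and 8800 bp. Within length classes the members with Fbxl19 also had the lower median, with 91.1% against 100% at up to 5 kb, 85.4% against 96.0% at 5 to 10 kb, 71.8% against 94.1% at 10 to 20 kb and 53.0% against 63.2% at 20 to 50 kb, where 12 members lacked Fbxl19. In that class at least 90% was covered in 20.6% of members with Fbxl19 and 16.7% of those without. Over 50 kb the medians were 33.7% and 72.2%, the second over 4 members only. In KD ES cells the medians with and without Fbxl19 were 98.1% and 100% over all lengths, but 97.6% and 89.6% at 20 to 50 kb.

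A few members were nearly the same in length in every condition. The domain that ranked highest in 4 lists and at percentile 99.96 of the differentiated list, chr17:39979800-39985999, was 6200 bp long in 4 lists and 6400 bp in OE-high cells. Its score was 306 in KD ES cells, 222 in OE-high cells, 161 in differentiated cells, 223 in differentiated KD cells and 300.4 in ES cells, against a median of 10.97 over the members in ES cells. An Rnf20 peak over its length had the top score of the Rnf20 list, 3100, whereas its OE-high and OE-low Fbxl19 peaks, with scores of 5.12 and 3.82, ranked at percentiles 0.615 and 1.81 of their lists. The domain at chr5:4052200-4054599 was 2200 bp long in differentiated KD cells and 2400 bp in the other 4 lists, and held no peak of either protein. At chr6:117666400-117668799, of 2400 bp in ES cells, the length was 2400 or 2600 bp in the other lists, again with no peak. Its score did not hold, at 18.4 in ES cells (percentile 94.1) and 7.23 in differentiated KD cells (percentile 10.6).

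Among the 5 members whose ends moved least, 1 had Fbxl19 at both ends. This domain, chr11:69727600-69734799, was 6800 bp long in both knockdown lists and 7200 bp in the OE-high, differentiated and ES lists. Its Fbxl19 summits at 69727491 and 69735300 each belonged to a peak that an Rnf20 peak overlapped. By contrast, chr11:62365200-62369199, among the 5 with the highest lowest rank, had an Fbxl19 summit at the left end only and 3 Rnf20 peaks. Its right end moved inward by 1000 bp in differentiated KD cells and outward by 600 bp in KD ES and OE-high cells.

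A pair of neighbouring domains on chromosome 8 also ranked high in every list. At chr8:19852800-20038799, 46 Rnf20 peaks lay with 7 OE-high and 7 OE-low Fbxl19 peaks. The listed length was 183400 bp in KD ES cells, 171400 bp in OE-high cells, 56800 bp in differentiated cells, 185800 bp in differentiated KD cells and 186000 bp in ES cells. At chr8:19679600-19803199, with 28 Rnf20 peaks, it was 123800 bp, 51800 bp, 48800 bp, 123600 bp and 123600 bp in the same order. Unlike the members as a whole, these were longest in the ES and knockdown lists and shortest in differentiated cells. What the high scores and dense peaks at these places and on chromosome 17 rest on was not tested.

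The members were spread unevenly over the chromosomes. On chromosome 11, 139 of 353 ES domains longer than 2000 bp were members (39.4%), and on chromosome 1, 122 of 312 (39.1%), against 323 of 1896 (17.0%) on all other chromosomes. These chromosomes together carried 261 of the 584 members (44.7%). The lowest share among autosomes was on chromosome 14, with 11 of 138 (7.97%), and chromosome X had 0 of 32, with an interval up to 10.9%. Chromosomes 1 and 11 were singled out after their values were seen.

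**Figure D5:**
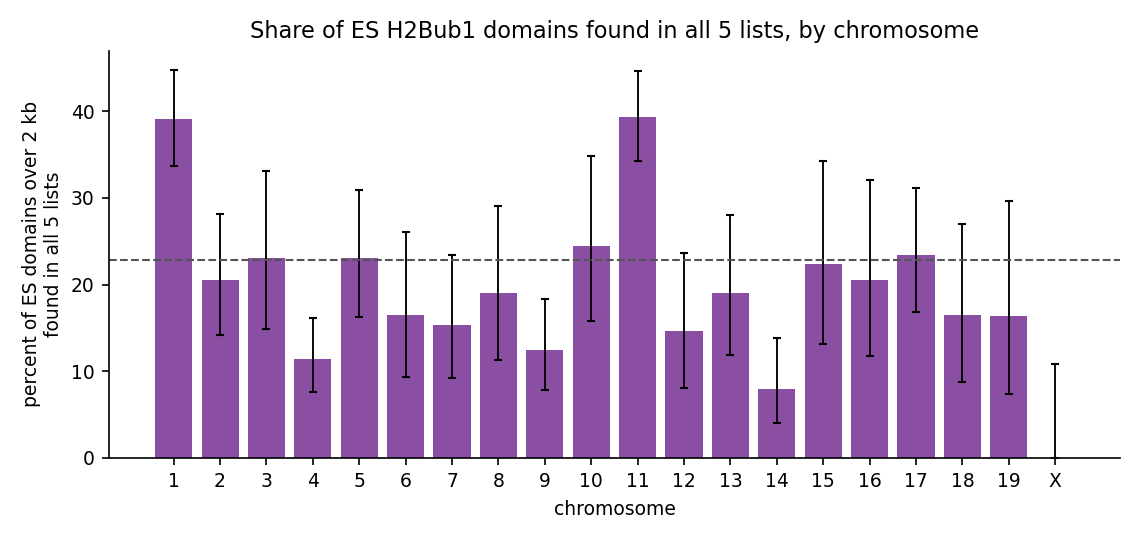
Percent of the ES H2Bub1 domains over 2 kb that were found in all 5 lists, by chromosome, with exact 95% intervals; the dashed line is the value over all chromosomes, 22.8%. Chromosomes 1 and 11 stand at 39.1% and 39.4%, and chromosome X has none.

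The excess on these chromosomes was present in both knockdown lists and small in the OE-high list. On chromosomes 1 and 11, ES domains were found again in 74.9% of cases in KD ES cells, 94.4% in OE-high cells, 86.6% in differentiated cells and 42.7% in differentiated KD cells. On the other chromosomes the shares were 48.7%, 93.5%, 76.5% and 25.4%. Chromosomes 1 and 11 held 34.0% of all KD ES domains, 15.4% of OE-high domains, 18.2% of differentiated domains, 28.4% of differentiated KD domains and 25.7% of ES domains. They held 18.1% of OE-high Fbxl19 peaks and 10.2% of Rnf20 peaks.

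The share of members with Fbxl19 was close on both sets of chromosomes, while that of the other domains was not. An OE-high Fbxl19 peak overlapped 83.5% of the members on chromosomes 1 and 11 and 82.7% of those elsewhere, against 60.1% and 69.0% of the other domains. Without chromosomes 1 and 11 the difference from the domains absent from the differentiated KD list alone was 3.23 points (interval -2.60 to 8.87), against 5.87 with them. In differentiated KD cells the summit end lay within 1 kb of the ES end in 88.4% of members on chromosomes 1 and 11, against 26.2% for the opposite end, and elsewhere in 92.4% against 32.8%. For Rnf20 the shares were 41.4% of members on chromosomes 1 and 11 and 54.8% elsewhere, against 24.5% and 40.9% of the other domains.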

How the data were processed

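H2Bub1, Fbxl19 and Rnf20 were profiled by ChIP-seq; BWA 0.5.9-r16, MACS and mm9 are named in the submitters' processing notes. The authors deposited 1 list per condition with a score and a length in bp per domain; the 5 H2Bub1 track lines end in BCP, a caller of broad domains, per the file headers. All H2Bub1 scores exceed 7. Lists are named as combined except that of Rnf20, and for the third H2Bub1 sample of OE-high cells no list is named. No source here names the caller of the Fbxl19 lists; they were read as counted from 1 and the others from 0, and positions are printed from 1. Depth is unknown, and no count or replicate could be used.

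Overlap meant at least 1 bp, and an end a window of 1 kb. Listed length summed all overlapping domains of a list; shifts used their outermost ends. Intervals of differences add the 2 exact intervals in squares. The members, comparisons and naming rules were chosen with earlier results of these data known. Named domains are the 5 with the highest lowest percentile, greatest length, least end shift, least cover or most Fbxl19 peaks, and the shortest; not all are printed. The reference tables at hand are of another build, so no gene or sequence was assigned. Overlap code was tested on simulated data. Python 3.11.15, NumPy 2.4.6, SciPy 1.17.1, pandas 2.3.3 and matplotlib 3.10.9 were used.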

Additional observations from a re-analysis of the deposited data

How the results depend on the processing

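Of 102 alternative values for 22 results, 76 stayed within the interval of the reported value or, for a count, close to it, 25 moved and 1 turned its sign. The weighting by length and score was counted only against the other ES domains. Against the domains absent from the differentiated KD list alone it gave -1.17 points for Rnf20 and -0.169 for both proteins. Against those absent from both knockdown lists it gave -2.99 for OE-high Fbxl19 and -2.92 for Rnf20. All of these were positive unweighted, and the weighted values have no interval. The remaining comparisons counted here with these classes kept their sign. The 584 members became 375 when each list had to cover at least 50% of the ES domain, 184 with 50% both ways, 178 with the top 50% of each list by score, 176 with lists of the same number of top domains and 323 without chromosomes 1 and 11. Among the 375, the share with at least 90% cover was 79.7% in KD ES, 90.9% in OE-high, 86.7% in differentiated and 54.4% in differentiated KD cells; over 5 kb the last was 31.5%. The differences in share (members minus other ES domains, in points) fell with the 375 to 7.66 for OE-high Fbxl19, 0.888 for OE-low Fbxl19 and 4.57 for Rnf20, both with intervals that include 0, and 7.70 for both together. With only peaks whose summit or midpoint lay inside they were 9.32 for OE-high Fbxl19 and 8.07 for both, and with the top 50% of peaks 8.88 for both. Weighting by length gave 11.2 for OE-high Fbxl19. Weighting by length and score gave 6.67 for OE-high Fbxl19, 2.71 for OE-low Fbxl19, -0.451 for Rnf20, 3.15 for both and 9.56 for a summit at an end. The last was 4.80 with OE-low summits and 9.63 with Rnf20 midpoints. In differentiated KD cells the summit end exceeded the opposite end by 60.8 points, and by 67.6 over 5 kb. The cause of these moves was not tested. Length and score weights and the removal of chromosomes 1 and 11 were chosen after seeing the data.

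No paired analysis was possible because the lists are combined and hold no values per replicate; leaving out a replicate could not be run for the same reason. Presence in a list depends on a score threshold, so absence is not lack of H2Bub1, and with depth unknown a shorter domain cannot be told apart from weaker signal.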

Other observations

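Of the 2561 ES domains over 2 kb, 154 (6.01%) were absent from the KD ES list alone, and so were listed in OE-high, differentiated and differentiated KD cells. The nearest other ES domain was within 10 kb in 16.3% of the 584 members and 16.5% of the other domains over 2 kb. The median gap to it was shorter in members, at 93900 bp against 112000 bp. It was 90800 bp in the domains absent from the differentiated KD list alone and 112600 bp in those absent from both knockdown lists.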
